A study of Rattus norvegicus with 99 samples.

Results

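Lsamp, Prkar1b and Cnga4 are 3 of the 17337 genes measured in whole heart tissue of rats with a banded aorta or pulmonary artery. They were taken by their symbols, after earlier results of these data had shown them among the genes that were lower in the left ventricle (LV) or the interventricular septum (Spt) of failing hearts with a banded aorta, so their values in those chambers are given as a description and carry no test. Their levels in the right ventricle (RV) of the same animals, in compensated hearts and in hearts with a banded pulmonary artery took no part in that choice and were tested.

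The 33 animals were male F1 hybrids of a Wistar Kyoto dam and a Lewis sire, and each gave 1 polyadenylated RNA library from LV, Spt and RV, or 99 libraries in 21 groups of condition and chamber. The compensated stage held 7 animals each of Sham-H (sham surgery), PAB-H (a clip around the pulmonary artery) and AOB-H (a clip around the aorta), all aged 11 weeks and 7 weeks after surgery. The failure stage held 3 PAB-F animals with 2 Sham-RF controls, aged 27 weeks and 21 weeks after surgery, and 4 AOB-F animals with 3 Sham-LF controls, aged 30 weeks and 24 weeks after surgery. The clip is loose at surgery and comes to narrow the vessel with the growth of the rat. The ages and times are those of the sample labels. Other statements, among them those of the paper, give other ages at surgery and at sampling and other times from surgery to failure.

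Lsamp encodes a member of the IgLON family, cell adhesion molecules of the immunoglobulin superfamily that are anchored on the outer face of the cell membrane. It is best known from the limbic system of the brain. Prkar1b encodes the type I beta regulatory subunit of protein kinase A (PKA), the kinase that cyclic AMP activates by releasing its catalytic subunits from the regulatory ones, and this isoform is known mainly from neurons. Cnga4 encodes a modulatory subunit of the cyclic nucleotide-gated channel of olfactory sensory neurons, which opens when cyclic nucleotides bind. In heart muscle, cyclic AMP and PKA carry the response to adrenergic stimulation, and all 3 genes are better known from nervous tissue than from heart.

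Some libraries, though not all of AOB-F, were low in all 3 genes. The stretch around the transcription start of each gene is therefore shown, from 250 bases before to 50 bases after the start. These are the most upstream starts that RefSeq gives on the rat build GRCr8, which is not the build the reads were mapped to, and RefSeq gives a second start for Lsamp and Prkar1b. Capitals mark matches on either strand to the E-box sequence CAGGTG, to the CCAAT box and to the GC box GGGCGG.
Lsamp, chr11:74222918-74223217, minus strand: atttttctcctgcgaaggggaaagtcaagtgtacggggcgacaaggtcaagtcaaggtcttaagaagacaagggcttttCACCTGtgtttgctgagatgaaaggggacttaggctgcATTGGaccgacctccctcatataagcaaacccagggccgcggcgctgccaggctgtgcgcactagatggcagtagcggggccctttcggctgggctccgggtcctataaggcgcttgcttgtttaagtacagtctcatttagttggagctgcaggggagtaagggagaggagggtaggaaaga
Prkar1b, chr12:20625674-20625973, plus strand: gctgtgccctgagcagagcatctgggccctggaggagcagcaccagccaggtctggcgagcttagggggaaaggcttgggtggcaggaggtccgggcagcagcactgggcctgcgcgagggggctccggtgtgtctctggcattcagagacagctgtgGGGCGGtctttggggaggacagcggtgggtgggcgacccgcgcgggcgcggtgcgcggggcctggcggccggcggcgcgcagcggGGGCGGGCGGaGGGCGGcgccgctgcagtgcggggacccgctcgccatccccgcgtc
Cnga4, chr1:169163956-169164255, plus strand: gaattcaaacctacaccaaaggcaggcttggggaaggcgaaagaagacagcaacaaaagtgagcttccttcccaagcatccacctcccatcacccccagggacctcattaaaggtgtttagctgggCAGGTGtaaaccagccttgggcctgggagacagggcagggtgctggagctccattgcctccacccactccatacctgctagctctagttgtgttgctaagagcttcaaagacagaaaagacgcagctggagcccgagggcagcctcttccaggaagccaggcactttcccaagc
CAGGTG stood in the windows shown of Lsamp and Cnga4, and in 18.8% of all 33469 promoter windows. The window of the second Prkar1b start, not shown, held it 2 times, and that of the second Lsamp start did not hold it. The 18.8% is a share of single windows and not a rate per gene. GGGCGG was found 4 times in the window of Prkar1b and in neither of the others, against 33.1% of all windows, and CCAAT stood in the window of Lsamp and in 37.5% of all. The cyclic AMP response half-site TGACG was in none of the 3 windows shown, in the window of the second Lsamp start and in 21.2% of all. The TATA box TATAAA was in none of them and in 14.2% of all, and the palindromic E-box CACGTG in none of them and in 6.42% of all. The Prkar1b window was rich in G and C, at 75.3% against a median of 51.7%, while Lsamp and Cnga4 had 54.3% and 55.3%. These matches are a description of letters only.

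Lsamp was the most abundant of the 3 per length of transcript, with a mean of 17.2 FPKM (fragments scaled to transcript length and library size) over the 21 group means, against 1.88 FPKM for Prkar1b and 0.952 FPKM for Cnga4. Counts per library ran from 29 to 833 for Lsamp, from 16 to 137 for Prkar1b and from 2 to 80 for Cnga4, so no library was without a read of any of them and Cnga4 carried the largest counting error. Levels below are in CPM, counts scaled to library size with TMM factors, with SD over animals. Total counts were 12.1 to 24.2 M per library. In 3 animals, AOB-H replicate 1, PAB-H replicate 2 and Sham-H replicate 6, the genes that separate RV from LV differed in the direction opposite to the other 30 animals, and the banding differences of the compensated stage are also given without them. The RV samples carry a tissue field that says left ventricle, and the description of the RV library of Sham-LF replicate 1 names PAB. Titles were followed in both. Counting intervals cover counting error only, since amplification copies the same molecule more than once.

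**Figure D1:**
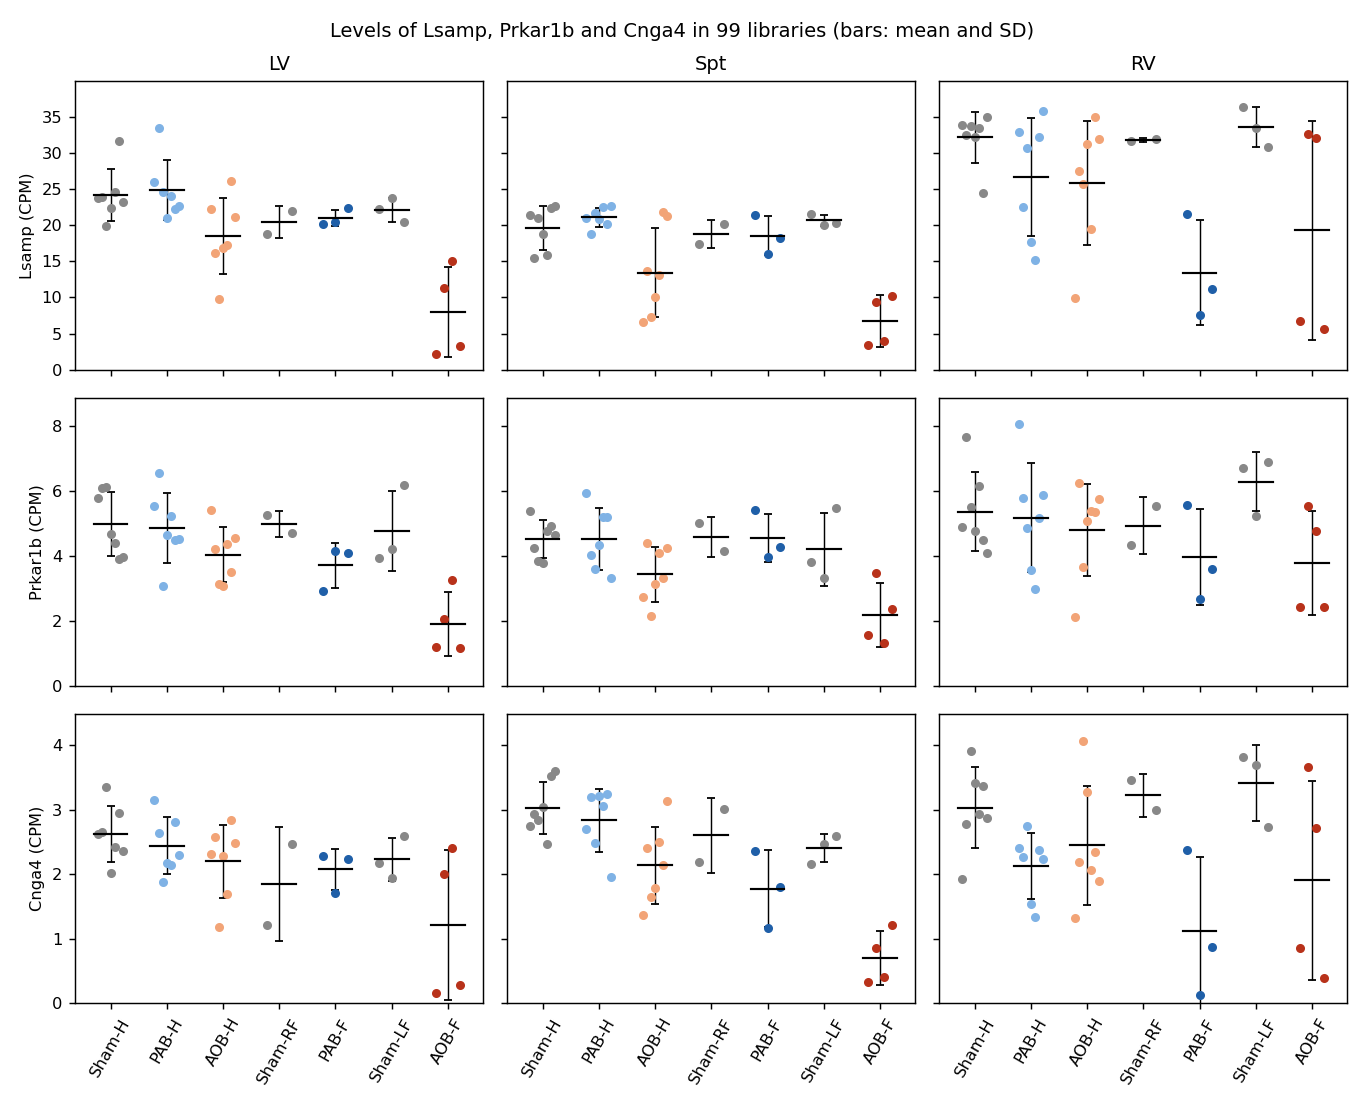
Level of Lsamp, Prkar1b and Cnga4 (rows, CPM on the vertical axis) in every library, by chamber (columns) and condition (horizontal axis), with points for animals and bars for mean and SD. Lsamp in the 4 AOB-F animals lies below the shams in LV and Spt, and Cnga4 in LV and all 3 genes in RV split into 2 low and 2 higher animals.

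In the sham groups Lsamp had a chamber pattern. In Sham-H its level was 32.2 CPM ± 3.52 (SD, n = 7) in RV, 24.2 CPM ± 3.60 in LV and 19.6 CPM ± 3.00 in Spt. With the animal as a block, Lsamp was higher in RV than in Spt by 0.71 ± 0.12 (log2 fold change ± SE, adjusted p = 0.0306, edgeR), and 0.115% of the 11266 genes tested were called higher in RV there. The differences of RV from LV (0.41 ± 0.12, adjusted p = 0.779) and of Spt from LV (-0.30 ± 0.12, adjusted p = 0.695) did not pass. Sham-H replicate 6 had the highest Lsamp in LV, at 31.6 CPM, and the lowest in RV, at 24.5 CPM, and without this animal the difference of RV from LV was 0.53 with an adjusted p of 0.0286. Prkar1b and Cnga4 differed between the chambers of Sham-H by at most 0.22 on the log2 scale, with adjusted p from 0.716 to 0.987. The percentage of genes called higher in RV or Spt than in LV was 0.

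The older shams held few animals, 2 in Sham-RF and 3 in Sham-LF, so closeness to the young shams cannot be shown. Between Sham-RF and Sham-H the 3 genes differed by -0.52 to 0.10 on the log2 scale over the 3 chambers, with adjusted p from 0.872 to 1.00, and between Sham-LF and Sham-H by -0.33 to 0.23. None of the genes was called in the comparison of Sham-RF with Sham-H, where 0% of all genes were called lower in each chamber. The largest difference was that of Cnga4 in LV of Sham-RF, at 69.9% of Sham-H (-0.52 ± 0.45). It ranged from -1.11 to -0.086 when 1 animal was left out. In LV and RV the older shams were all of 1 library series, a run of sample numbers, and Sham-H was of several. Age and series are thus partly confounded there.

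In LV of AOB-F, Lsamp was lower in every animal than in every Sham-LF animal. Sham-LF replicates 1, 2 and 3 had 22.2, 23.7 and 20.4 CPM, and AOB-F replicates 1, 2, 3 and 4 had 2.22, 11.3, 15.0 and 3.30 CPM. Replicates 1 and 4 stood far below replicates 2 and 3, and the groups did not overlap. The fitted level was 36.4% of that of Sham-LF, a log2 fold change of -1.46 ± 0.35. Prkar1b did the same, with 3.95, 4.22 and 6.19 CPM in Sham-LF and 1.22, 2.07, 3.28 and 1.17 CPM in AOB-F replicates 1 to 4. Its fitted level was 40.9% of Sham-LF (-1.29 ± 0.28), and replicates 1 and 4 were again the lowest.
Cnga4 divided the AOB-F animals instead. Sham-LF had 2.17, 1.94 and 2.59 CPM, and AOB-F replicates 1 and 4 had 0.153 and 0.275 CPM, from 2 and 4 reads, while replicates 2 and 3 had 2.01 and 2.41 CPM, within the range of the shams. The fitted log2 fold change of -0.84 ± 0.44 therefore averages animals far below the shams and animals at their level. Against the mean of Sham-LF, replicate 1 was at 6.85% (95% Poisson interval 0.830% to 24.7%) and replicate 4 at 12.3% (3.36% to 31.5%).
Lsamp and Prkar1b were among the genes whose AOB-F libraries all lay below all Sham-LF libraries, as were 5.98% of the 11703 genes tested in LV, and both were among the 0.171% of genes called lower. The genes were chosen on this comparison, so nothing is read from these counts.

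In Spt of AOB-F the 3 genes were lower too. Lsamp had 21.5, 20.1 and 20.4 CPM in Sham-LF and 3.43, 9.34, 3.96 and 10.2 CPM in AOB-F replicates 1 to 4, without overlap. Its fitted level was 32.7% of Sham-LF (-1.61 ± 0.31). Cnga4 had 2.16, 2.46 and 2.59 CPM in Sham-LF and 0.330, 0.863, 0.402 and 1.21 CPM in AOB-F, again without overlap, and its fitted level was 30.1% of Sham-LF (-1.73 ± 0.31). Here all 4 animals lay below the shams for Cnga4, unlike in LV. Prkar1b had 3.82, 3.34 and 5.49 CPM in Sham-LF and 1.58, 3.50, 1.34 and 2.37 CPM in AOB-F, where replicate 2 lay within the sham range, at a fitted level of 52.1% (-0.94 ± 0.26). In Spt, 4.50% of 11624 genes had all AOB-F libraries below all Sham-LF libraries and 0.0774% were called lower, and here too these values belong to the choice of the genes. Since this is bulk tissue, fewer cells that express a gene and less of its RNA per cell cannot be told apart.

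In RV of AOB-F, which the choice of genes did not use, the differences had the same sign and did not pass the test. Lsamp had 36.3, 33.4 and 30.8 CPM in Sham-LF and 6.81, 32.6, 32.1 and 5.57 CPM in AOB-F replicates 1 to 4. Prkar1b had 6.72, 5.26 and 6.91 CPM in Sham-LF and 2.45, 5.56, 4.78 and 2.43 CPM in AOB-F. Cnga4 had 3.82, 3.70 and 2.74 CPM in Sham-LF and 0.859, 3.66, 2.72 and 0.392 CPM in AOB-F. For each gene replicates 1 and 4 lay below all shams, and replicates 2 and 3 lay at or near the sham range. The log2 fold changes were -0.78 ± 0.44 for Lsamp (adjusted p = 0.425), -0.72 ± 0.33 for Prkar1b (adjusted p = 0.367) and -0.82 ± 0.50 for Cnga4 (adjusted p = 0.463). Without Sham-LF replicate 1, whose description names PAB and whose Lsamp was the highest of the shams, they were -0.74, -0.69 and -0.74. No gene of 11734 was called lower in this comparison (0%), 4.54% had all AOB-F libraries below all Sham-LF libraries, and none of the 3 genes did. By the quasi-likelihood test of edgeR 1509 genes had an unadjusted p under 0.05 there, and DESeq2 also called 0 genes lower.

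**Figure D2:**
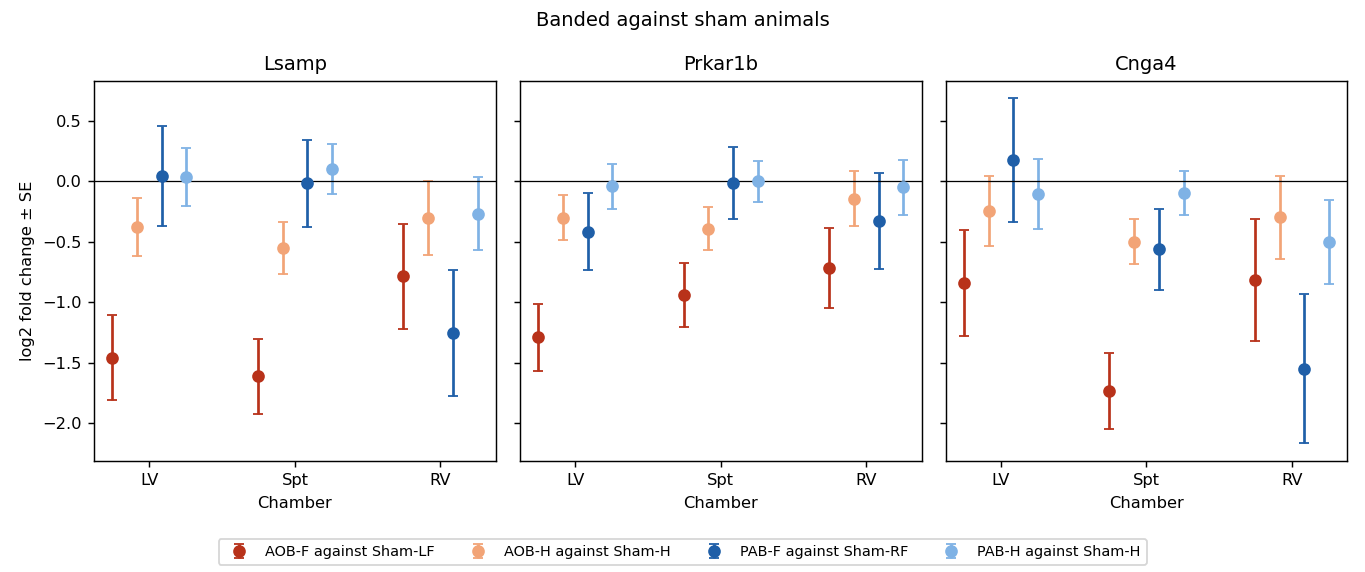
Log2 fold change of Lsamp, Prkar1b and Cnga4 (panels) for each banding group against its own shams in LV, Spt and RV, with bars of 1 SE. The largest negative values are those of AOB-F in LV and Spt, for which the genes were chosen, and those of Lsamp and Cnga4 in RV of PAB-F, at -1.26 and -1.55.

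Whether the low levels belonged to the same animals was asked by setting each animal beside its other chambers. AOB-F replicate 1 was low throughout, with Lsamp at 10.0%, 16.6% and 20.3% of the Sham-LF mean in LV, Spt and RV. Replicate 4 had Lsamp at 14.9% in LV and 16.6% in RV and at 49.5% in Spt. Replicate 3 was the reverse, with 67.9% in LV, 95.8% in RV and 19.2% in Spt, and replicate 2 had 51.2%, 97.4% and 45.2% in LV, RV and Spt. The low pair was thus replicates 1 and 4 in LV and RV for all 3 genes, with the order within the pair reversed between LV and RV for Lsamp and Cnga4, and in Spt the low pair was replicates 1 and 3 for all 3 genes.
All 3 genes were below the sham range in replicates 1 and 4 of LV, in replicates 1 and 4 of RV and in replicates 1, 3 and 4 of Spt, so 2 of 4 animals had this in every chamber. A sample sheet of the study exchanges the Spt libraries of AOB-F replicates 1 and 2. With that order, only replicate 4 was below the sham range for all genes in every chamber, and the low Spt libraries would be those of the animals that were highest in LV and RV.

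The low libraries were those with the highest levels of genes that mark pressure load. Nppa, which encodes atrial natriuretic peptide and is a common marker of ventricular load, was in LV at 2344% and 2166% of the Sham-LF mean in replicates 1 and 4, and at 499% and 293% in replicates 2 and 3. In Spt it was at 2240% and 1814% in replicates 1 and 3, and at 499% and 288% in replicates 2 and 4. In RV it was at 1278% and 1807% in replicates 1 and 4, and at 295% and 20.6% in replicates 2 and 3. The crossing of replicates 3 and 4 between Spt and the other chambers was therefore seen in Nppa as in the 3 genes. Nppb (brain natriuretic peptide), Acta1 (skeletal alpha-actin) and Ankrd23, a stretch-responsive ankyrin repeat gene of the sarcomere, put the same pair highest in LV, Spt and RV. Myh7, the slow myosin heavy chain, kept this order in Spt and RV and not in LV, where replicate 2 was highest at 176% of the sham mean. Ankrd1 did so in all 3 chambers. With 4 animals this is a description of their order. Summed atrial cardiomyocyte markers were highest in replicate 4 in LV (539 CPM) and Spt (237 CPM) and in replicate 2 in RV (820 CPM). Their part in Nppa was not tested.

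**Figure D3:**
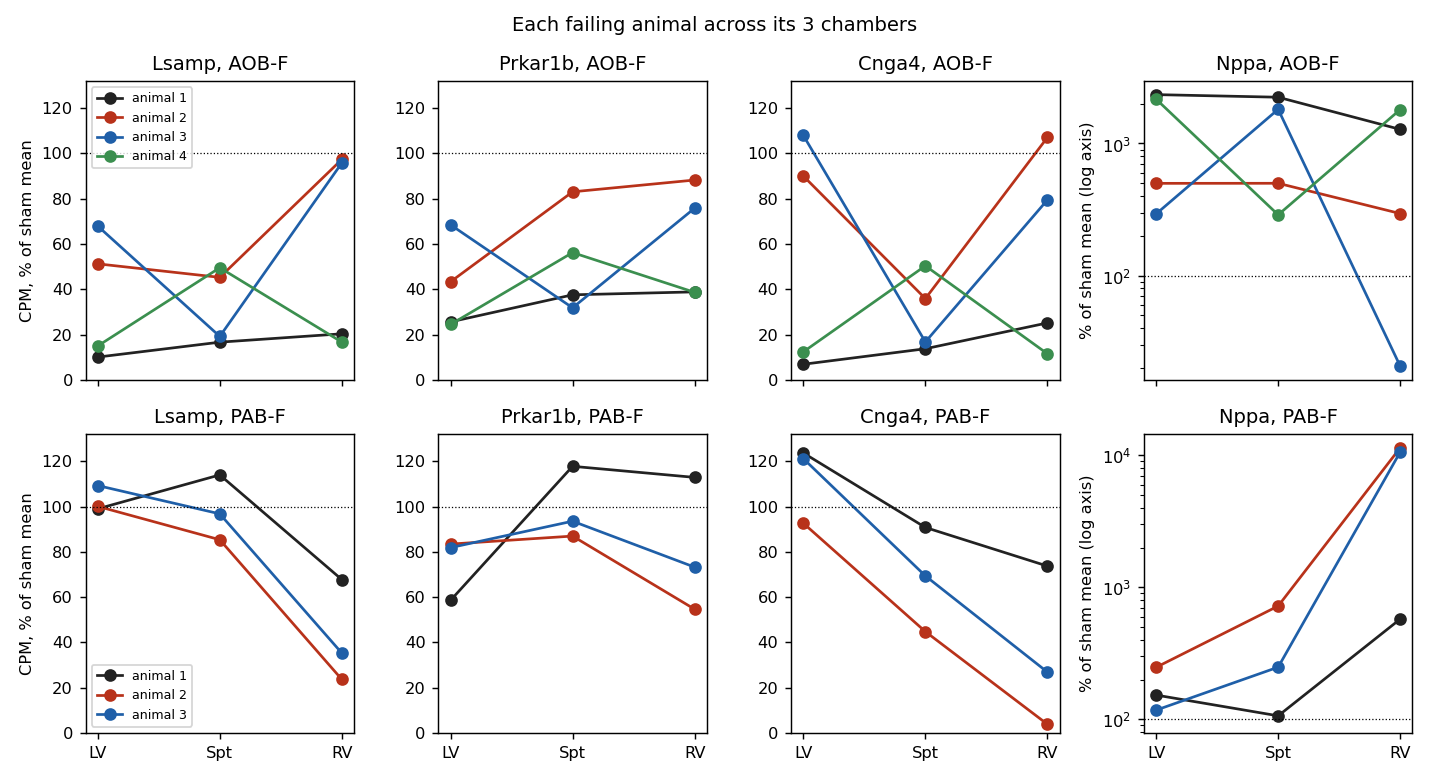
Level of Lsamp, Prkar1b, Cnga4 and the load marker Nppa in each AOB-F animal (top) and PAB-F animal (bottom) across LV, Spt and RV, as percent of the mean of their own shams, with a log axis for Nppa. AOB-F replicates 3 and 4 cross between LV, Spt and RV, and the 2 AOB-F libraries lowest in each gene are the 2 highest in Nppa in each chamber, which does not hold in LV of PAB-F.

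Compensated hearts with a banded aorta showed smaller differences, and none passed the test. In Spt, Lsamp ran from 6.64 to 21.8 CPM (median 13.1) in AOB-H and from 15.4 to 22.6 CPM (median 21.0) in Sham-H. The groups overlapped, and the log2 fold change was -0.55 ± 0.21 (unadjusted p = 0.0139, adjusted p = 0.245). Cnga4 ran from 1.37 to 3.14 CPM (median 2.14) in AOB-H and from 2.48 to 3.61 CPM (median 2.94) in Sham-H, a difference of -0.50 ± 0.19 (unadjusted p = 0.0122, adjusted p = 0.243). Prkar1b ran from 2.16 to 4.42 CPM (median 3.35) and from 3.80 to 5.40 CPM (median 4.65), a difference of -0.39 ± 0.18 (unadjusted p = 0.0335, adjusted p = 0.282). Few genes had a lower fold change in Spt, namely 0.989% of all genes for Lsamp and 2.72% for Prkar1b, with Cnga4 between them, and 0% of genes were called lower, by edgeR, with 1851 genes at an unadjusted p under 0.05.
Leaving out the 3 animals with opposite chamber differences, the differences in Spt were -0.40, -0.32 and -0.38 (log2) for Lsamp, Prkar1b and Cnga4. In LV, the chamber under load, the differences were -0.38 ± 0.24 for Lsamp, -0.30 ± 0.19 for Prkar1b and -0.25 ± 0.29 for Cnga4, all with an adjusted p of 0.956. In RV they were -0.30 ± 0.30, -0.14 ± 0.23 and -0.30 ± 0.34, all with an adjusted p of 1.00. Without the 3 animals the LV differences were -0.36, -0.44 and -0.23, and those in RV were -0.23, -0.068 and -0.18, where the values of Prkar1b and Cnga4 shrank by more than 1.5 times. The sign was negative for 3 of 3 genes in each chamber, against 50.3%, 49.9% and 45.6% of all genes in LV, Spt and RV. In LV and RV, 0% of genes were called lower, with 531 and 110 genes at an unadjusted p under 0.05 in edgeR's test.

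The 3 genes were low together in only some of the AOB-H animals. At least 1 of them lay below the Sham-H range in 6 of 7 animals in Spt, 5 of 7 in LV and 4 of 7 in RV. In Spt all 3 genes lay below the Sham-H range in replicates 1, 3 and 4, with Lsamp at 33.8%, 37.3% and 51.5% of the Sham-H mean. In these libraries Nppa was at 710%, 1075% and 282% of the Sham-H mean, and in the other 4 animals it was at 64.7% to 188%. In LV this held for replicate 3 alone, with Lsamp at 40.4% and Nppa at 346%, the highest Nppa of the AOB-H libraries of LV. In RV it held for replicate 1 alone, with Lsamp at 31.0% and Nppa at 1378%, while replicate 3 had Nppa at 540% with 1 gene below the range. In RV of replicate 3 Nppb was at 120% and Acta1 at 86.2%. Summed atrial cardiomyocyte markers ran from 7.22 to 1758 CPM in RV of AOB-H, and their part in Nppa was not tested. AOB-H replicate 1 is an animal with an opposite chamber difference, and its LV library had Lsamp at 91.9% and Nppa at 78.0%.

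Hearts with a banded pulmonary artery had low levels of Lsamp and Cnga4 in RV at failure, the loaded chamber, though no test was passed. Lsamp had 31.6 and 32.0 CPM in Sham-RF and 21.5, 7.51 and 11.2 CPM in PAB-F replicates 1, 2 and 3. Cnga4 had 3.46 and 2.99 CPM in Sham-RF and 2.38, 0.123 and 0.866 CPM in PAB-F. For both genes every PAB-F animal lay below both shams, as did 18.5% of 11734 genes in a comparison of 3 with 2 animals. The log2 fold changes were -1.26 ± 0.52 for Lsamp (unadjusted p = 0.0220, adjusted p = 0.542) and -1.55 ± 0.62 for Cnga4 (unadjusted p = 0.0174, adjusted p = 0.530), or 41.9% and 34.1% of the sham level. Only 0.750% of genes had a lower fold change than Lsamp and 0.375% a lower one than Cnga4. Cnga4 in replicate 2 rested on 2 reads, at 3.82% of the sham mean (95% Poisson interval 0.462% to 13.8%).
Prkar1b had 4.34 and 5.57 CPM in Sham-RF and 5.59, 2.71 and 3.63 CPM in PAB-F. The groups overlapped, and the difference was -0.33 ± 0.39 (adjusted p = 0.817). Replicates 2 and 3 were below the sham range for all 3 genes, and their Nppa was at 11410% and 10600% of the Sham-RF mean, against 575% in replicate 1. Nppb was at 1279%, 866.6% and 253.5% in replicates 2, 3 and 1. Summed atrial cardiomyocyte markers were at 16.55, 1855 and 43.4 CPM in the same order, against 14.3 and 50.6 CPM in Sham-RF.

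In the other chambers of PAB-F the differences were small or mixed. In LV they were 0.04 ± 0.41 for Lsamp, -0.42 ± 0.32 for Prkar1b and 0.17 ± 0.51 for Cnga4, each with an adjusted p of 1.00. Prkar1b was below both shams in all 3 animals, with 2.93, 4.17 and 4.09 CPM against 5.28 and 4.72 CPM, as were 11.0% of all genes there. In Spt, Lsamp and Prkar1b differed by -0.02 ± 0.36 (adjusted p = 0.993) and -0.01 ± 0.30 (adjusted p = 0.994), and Cnga4 by -0.56 ± 0.33 (adjusted p = 0.816), from 2.19 and 3.02 CPM in Sham-RF to 2.37, 1.17 and 1.81 CPM in PAB-F. None of the genes was below both shams in every PAB-F animal in Spt, where 21.3% of genes were. In each chamber of PAB-F 0% of genes were called lower by edgeR, with 122, 481 and 982 genes at an unadjusted p under 0.05 in LV, Spt and RV.

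At the compensated stage of pulmonary artery banding none of the 3 genes passed the test. Cnga4 in RV had a fitted level of 70.5% of Sham-H. There, 1.56% of genes had a lower fold change than Cnga4, 5.09% a lower one than Lsamp and 33.5% a lower one than Prkar1b. In RV, Lsamp ran from 15.1 to 35.8 CPM (median 30.6) in PAB-H against 24.5 to 34.9 CPM (median 33.5) in Sham-H. The differences in RV were -0.27 ± 0.30 for Lsamp, -0.05 ± 0.23 for Prkar1b and -0.51 ± 0.35 for Cnga4, each with an adjusted p of 1.00, and without the 3 animals with opposite chamber differences they were -0.29, -0.12 and -0.50. All 3 genes lay below the sham range in PAB-H replicates 4 and 5, with Lsamp at 54.9% and 47.0% and Nppa at 151% and 243% of the Sham-H mean, while replicate 1 had Nppa at 783% and none of the genes below the range. In LV and Spt the differences ran from -0.11 to 0.10, with adjusted p from 0.895 to 0.999. No gene was called lower in PAB-H (0% in each chamber), and 552, 516 and 148 genes had an unadjusted p under 0.05 in LV, Spt and RV.

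The tests of one banding effect against another were made in RV. The AOB effect at failure minus that at the compensated stage was -0.48 ± 0.53 for Lsamp, -0.57 ± 0.40 for Prkar1b and -0.52 ± 0.61 for Cnga4 (adjusted p = 0.789, 0.740 and 0.801), and without the 3 animals with opposite chamber differences it was -0.56, -0.66 and -0.65. The effect of AOB minus that of PAB at failure was 0.47 ± 0.68, -0.39 ± 0.52 and 0.74 ± 0.80, each with an adjusted p of 1.00. In both, 0% of genes were called in either direction by edgeR, with 691 and 332 genes at an unadjusted p under 0.05. The SE of these differences was 0.40 to 0.80, so differences of that size were not detectable. The comparisons of AOB-H and of PAB-H share the Sham-H animals.

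In the order of the 21 group means, AOB-F in Spt and LV held the lowest places for Lsamp (6.74 CPM ± 3.54 and 7.97 CPM ± 6.22) and for Prkar1b (1.94 CPM ± 0.986 in LV), followed by PAB-F in RV for Lsamp (13.4 CPM ± 7.27) and by AOB-H in Spt for Prkar1b (3.45 CPM ± 0.844). For Cnga4 the lowest were AOB-F in Spt (0.702 CPM ± 0.414), PAB-F in RV (1.12 CPM ± 1.15) and AOB-F in LV (1.21 CPM ± 1.17). Sham-LF in RV was the highest for each gene, at 33.5 CPM ± 2.76 for Lsamp, 6.30 CPM ± 0.903 for Prkar1b and 3.42 CPM ± 0.591 for Cnga4. All 20 pairs of neighbours in the order had overlapping ranges for each gene, so that no step between neighbours was larger than their spread.

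The 21 animals of the compensated stage, which the choice of genes did not use, were asked whether an animal's deviation from its group mean (log2 CPM) recurred across chambers or genes, in 18 relations with permutation tests and adjustment over the 18. Within a chamber, the 9 relations between genes were all positive, and 5 passed. In Spt, Lsamp and Cnga4 had r = 0.65 (rho = 0.54, p = 0.00145, adjusted p = 0.0104) and Prkar1b and Cnga4 had r = 0.64 (rho = 0.63, p = 0.00174, adjusted p = 0.0104). Without the 2 animals farthest from the median these were 0.62 and 0.68, and among the 15 animals of library series 3 they were 0.52 and 0.83. In RV, Lsamp and Prkar1b had r = 0.76 (rho = 0.56, p = 0.00017, adjusted p = 0.00306), which was 0.46 without the 2 farthest animals and 0.54 among the 9 animals of library series 2. Lsamp and Cnga4 in RV (r = 0.58, rho = 0.42, p = 0.00525, adjusted p = 0.0189) and in LV (r = 0.62, rho = 0.35, p = 0.00411, adjusted p = 0.0185) had 0.25 and 0.21 without the 2 farthest animals, so these rested on those animals, and 0.85 and 0.46 among the 9 animals of library series 2.
By rank, none of the 5 passed, with an adjusted p of rho from 0.0533 to 0.284. Counts of the 3 genes come from the same library, and shared depth or composition enters these relations. The permutations ran over all 21 animals and not within conditions, whose spread differed. For Lsamp in Spt the SD was 1.34 CPM in PAB-H, 3.00 CPM in Sham-H and 6.15 CPM in AOB-H. The p of these relations, within and across chambers, can therefore be too small.

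Across chambers, none of the 9 relations of a gene with itself passed. For Lsamp r was 0.41 between LV and Spt (rho = 0.14, p = 0.0647, adjusted p = 0.129), 0.47 between Spt and RV (rho = 0.35, p = 0.0345, adjusted p = 0.0887) and -0.12 between LV and RV (rho = -0.04, p = 0.586, adjusted p = 0.620). Prkar1b had r from 0.06 to 0.34 and Cnga4 from -0.20 to 0.23. Cnga4 in Spt and RV, with r = -0.13 over all animals, had -0.56 (adjusted p = 0.0503) without the 3 animals with opposite chamber differences, by permutation. Among the 9 animals whose LV and RV libraries were of library series 2 it had -0.76 (adjusted p = 0.133). The Spt libraries of these animals were of series 2 and 3, so relations with Spt were not held within 1 series. Without the 3 animals with opposite chamber differences, Lsamp in LV and Spt had r = 0.79 with an adjusted p of 0.0121. In library series 1 and 3 of LV and RV and in series 2 of Spt a condition held 2 animals, whose deviations mirror each other, so no value was computed there.

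**Figure D4:**
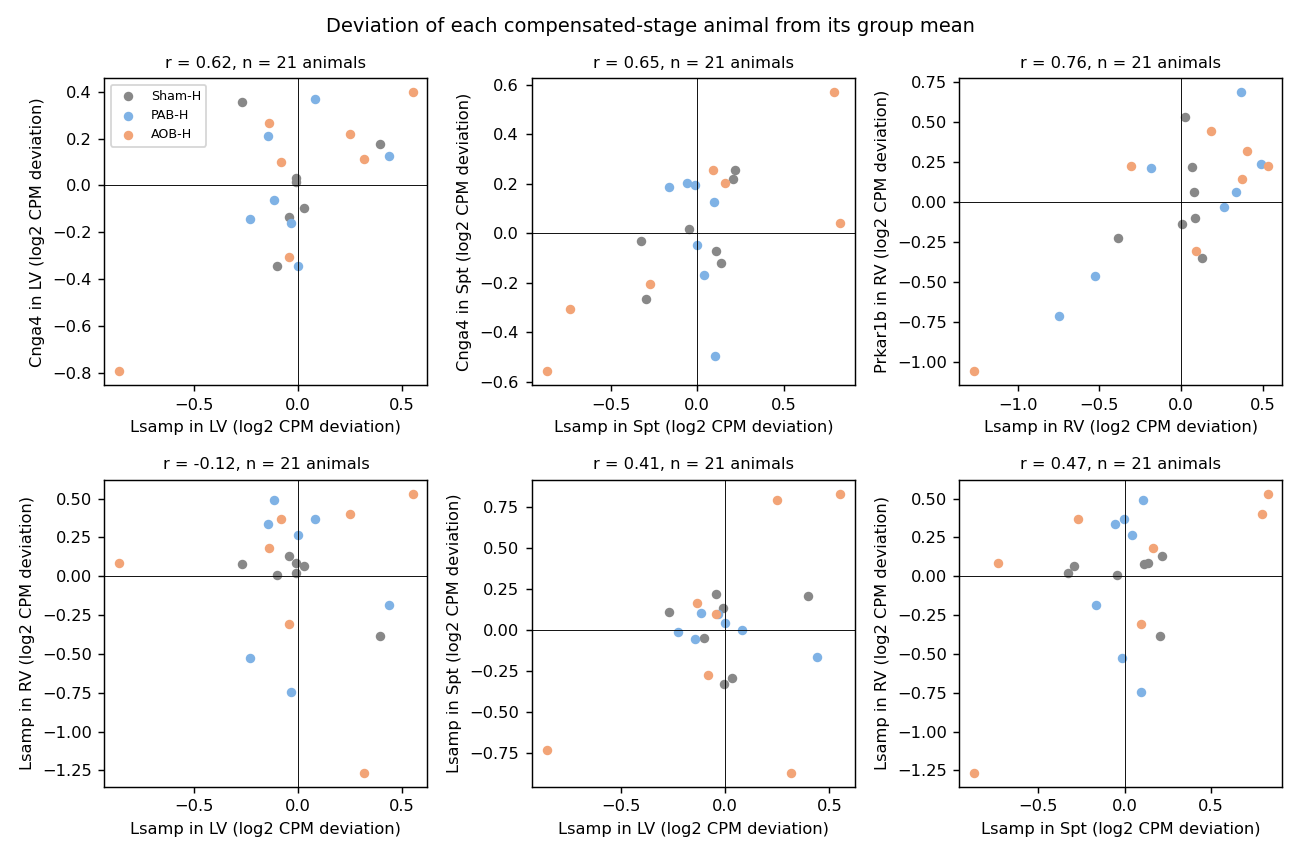
Deviation of each of 21 compensated-stage animals from its group mean (log2 CPM on both axes), for genes against each other within a chamber (top) and for Lsamp between chambers (bottom). The top panels slope upward with r of 0.62, 0.65 and 0.76, and the lowest points are AOB-H animals, while LV and RV of Lsamp have r = -0.12.

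The genes whose 21 group means were most like those of each gene were found among 11574 other genes. For Lsamp they were Tmod4, Dhrs7c, Eno3, Rab3b and Cyp2e1, with r from 0.960 to 0.974. Tmod4 caps actin filaments in skeletal muscle, Eno3 is the muscle enolase of glycolysis, Dhrs7c is a sarcoplasmic reticulum dehydrogenase of heart and muscle, Rab3b is a small GTPase of vesicle traffic and Cyp2e1 is a cytochrome P450. Tmod4 and Eno3 were at -1.27 ± 0.28 and -1.23 ± 0.30 (log2 fold change) in LV of AOB-F and at -0.87 ± 0.38 and -0.65 ± 0.27 in RV. Both were picked for a pattern over groups that include AOB-F, so these values belong to the picking and are a description.
For Prkar1b they were Paqr9, Bckdhb, Acox2, Akr1e2 and Gsta4, with r from 0.953 to 0.962. Bckdhb encodes a subunit of the branched-chain keto acid dehydrogenase, Acox2 a peroxisomal oxidase and Gsta4 a glutathione transferase. For Cnga4 they were Il9r, Dlgap1, Crybb1, Fabp3 and Atp5g1, with r from 0.889 to 0.926, among them the heart fatty acid binding protein (Fabp3) and a subunit of mitochondrial ATP synthase (Atp5g1). Lsamp and Prkar1b were themselves alike, with r = 0.948 over the 21 groups, while Cnga4 had 0.882 with Lsamp and 0.811 with Prkar1b, and the median r of all genes with each of them was -0.06. These values describe groups that share animals and chambers. The 21 groups include AOB-F in LV and Spt, and low levels in either were the basis for choosing Lsamp, Prkar1b and Cnga4. The r among these genes thus partly belongs to the choice, and nothing is read from its distance to the median of all genes.

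**Figure D5:**
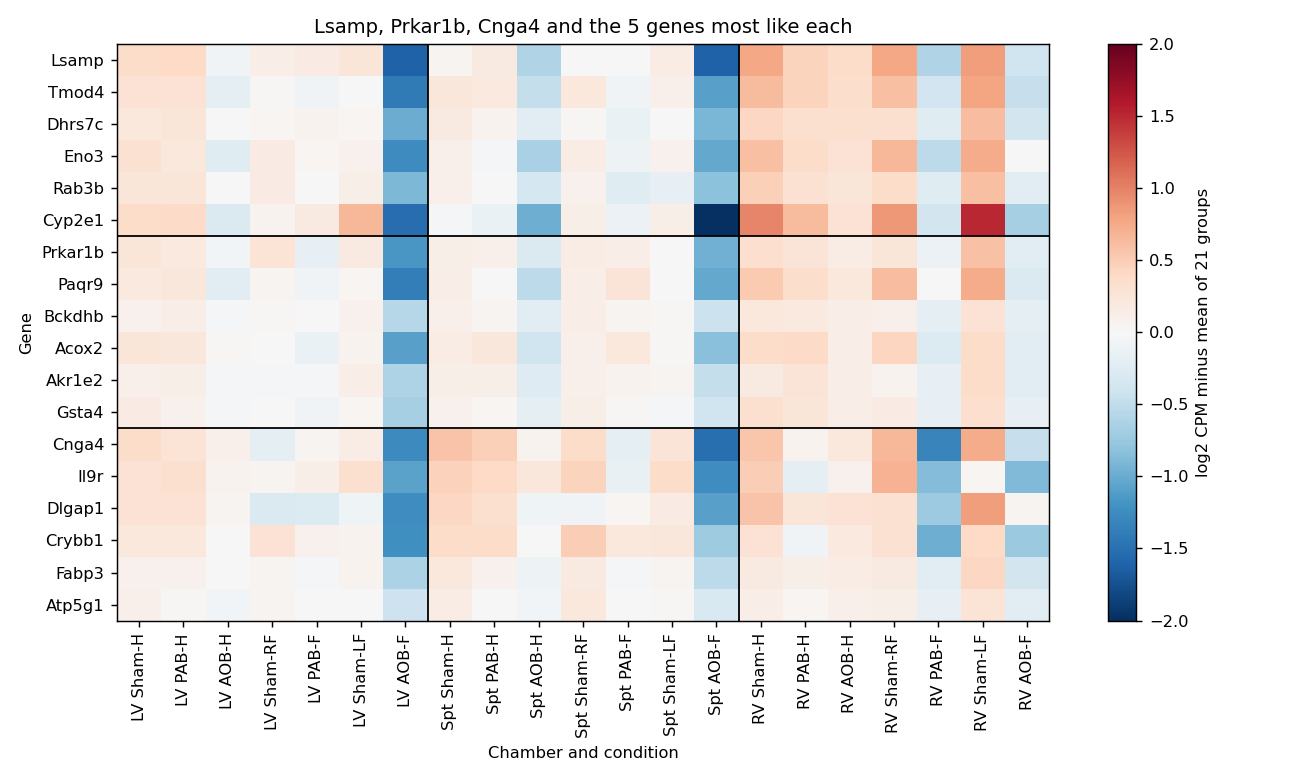
Group mean of log2 CPM minus the mean of the 21 groups, for Lsamp, Prkar1b, Cnga4 and the 5 genes most like each (rows), by chamber and condition (columns). The darkest blue columns are AOB-F in LV and Spt, for which Lsamp, Prkar1b and Cnga4 were chosen, and RV of PAB-F is the next darkest for Lsamp and Cnga4.

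Relatives of the 3 genes were read from lists. Of the IgLON family, 3 of 4 measured genes were tested in LV and Spt, and besides Lsamp none was called in AOB-F. In LV Opcml and Negr1 were at 0.01 ± 0.48 (adjusted p = 0.999) and 0.27 ± 0.46 (adjusted p = 0.949), and in Spt at 0.10 ± 0.29 (adjusted p = 0.940) and 0.08 ± 0.38 (adjusted p = 0.966). In RV Opcml and Negr1 were at -0.03 ± 0.45 (adjusted p = 0.981) and -0.51 ± 0.48 (adjusted p = 0.607), and Ntm, tested there too, at 0.99 ± 0.66 (adjusted p = 0.489), so 3 of the 4 tested genes were negative. The median of the list was 0.01, 0.08 and -0.27 in LV, Spt and RV, beside 0.01, -0.01 and 0.03 for all genes.

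Of the PKA subunits and inhibitors, all 9 were tested, and besides Prkar1b none was called in any comparison. The ubiquitous regulatory subunit Prkar1a was at -0.04 ± 0.22 (adjusted p = 0.998) in LV and 0.11 ± 0.19 (adjusted p = 0.893) in Spt of AOB-F, and the catalytic subunit Prkaca at -0.17 ± 0.11 (adjusted p = 0.609) and -0.07 ± 0.10 (adjusted p = 0.864). The type II subunit Prkar2a was at 1.04 ± 0.80 (adjusted p = 0.532) in RV. The list had medians of -0.00, 0.10 and 0.10 in LV, Spt and RV of AOB-F. Of the PKA anchoring proteins, 13, 12 and 13 were tested in LV, Spt and RV and none was called, with medians of 0.05, 0.12 and 0.31. The lowest p in RV of AOB-F were those of Akap13 (0.53 ± 0.19, adjusted p = 0.344) and Akap5 (1.36 ± 0.69, adjusted p = 0.392).

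Of the 6 cyclic nucleotide-gated channel genes only Cnga4 and Cngb1 had enough counts to be tested, and Cngb1, a modulatory subunit of rod and olfactory channels, was at -0.16 ± 0.48 (adjusted p = 0.989), -0.17 ± 0.38 (adjusted p = 0.921) and 1.08 ± 0.49 (adjusted p = 0.367) in LV, Spt and RV of AOB-F. No cyclase and no phosphodiesterase was called in any banding comparison. In RV of AOB-F the lowest p were those of the guanylyl cyclase Gucy2c (1.60 ± 0.58, adjusted p = 0.346) and the adenylyl cyclase Adcy7 (0.83 ± 0.43, adjusted p = 0.400), and of the phosphodiesterases Pde2a (0.32 ± 0.13, adjusted p = 0.349) and Pde8a (0.58 ± 0.26, adjusted p = 0.367). Prkar1b overlaps Dnaaf5 in the RefSeq table, and Dnaaf5 was at 0.09 ± 0.13 (adjusted p = 0.929) in LV and 0.01 ± 0.11 (adjusted p = 0.986) in Spt of AOB-F. Whether counting used the strand is not given in the sources used here.

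Levels of cell type markers were set beside the low libraries. The summed ventricular cardiomyocyte markers (9 measured) were at 61120 and 65540 CPM in LV of AOB-F replicates 1 and 4, 76370 and 76950 CPM in replicates 2 and 3, and 78390 to 96960 CPM in Sham-LF. In Spt they were at 77960 and 72010 CPM in replicates 1 and 3 and 84570 and 83470 CPM in replicates 2 and 4, against 88200 to 107900 CPM in Sham-LF. In RV they were at 71170 and 78930 CPM in replicates 1 and 4 and 96160 and 98580 CPM in the others, against 96320 to 111600 CPM in Sham-LF. The cardiomyocyte markers were thus lower in the libraries where the 3 genes were low, with a median fold change of -0.21 (log2) in each chamber of AOB-F, and none of the 9 was called.
Macrophage markers (7 measured, none called) were at 735 and 695 CPM in LV of replicates 1 and 4, 528 and 443 CPM in replicates 2 and 3, and 376 to 466 CPM in Sham-LF. Neuron markers (6 tested of 12 measured) did not move down with the 3 genes: their sum in LV was 45.7 and 42.0 CPM in replicates 1 and 4, 24.9 and 18.7 CPM in replicates 2 and 3, and 17.2 to 20.6 CPM in Sham-LF. Of them Uchl1, which is also expressed outside neurons, was called higher in LV (1.92 ± 0.46, adjusted p = 0.0375), and Elavl4 was at 0 in all LV libraries of AOB-F. Schwann cell markers (9 tested, none called) were at 39.9 and 53.7 CPM in replicates 1 and 4, 45.8 and 66.3 CPM in replicates 2 and 3, and 48.3 to 58.3 CPM in Sham-LF. In the other chambers their sum was lower where the 3 genes were low. In Spt it was 25.5 and 29.0 CPM in replicates 1 and 3 and 48.9 and 54.0 CPM in replicates 2 and 4, against 37.2 to 66.5 CPM in Sham-LF. In RV it was 44.7 and 37.3 CPM in replicates 1 and 4 and 94.1 and 76.2 CPM in replicates 2 and 3, against 64.1 to 71.1 CPM in Sham-LF.
Mural cell markers (8 tested, none called) split the same way in each chamber. In LV they were at 381.0 and 405 CPM in replicates 1 and 4 and 589 and 507 CPM in replicates 2 and 3, against 466 to 532 CPM in Sham-LF. In Spt they were at 429.6 and 386 CPM in replicates 1 and 3 and 491 and 520.1 CPM in replicates 2 and 4, against 480 to 555 CPM. In RV they were at 369 and 370.1 CPM in replicates 1 and 4 and 644.5 and 543 CPM in replicates 2 and 3, against 416 to 498 CPM. The endothelial sum was also lower in the low pair. LV values were 1196 and 1239 CPM in replicates 1 and 4, and 1606 and 1516 CPM in replicates 2 and 3. Those of Spt were 1521 and 1442 CPM in replicates 1 and 3, and 1739 and 1740 CPM in replicates 2 and 4. RV values were at most 1389 CPM in replicates 1 and 4, and 1493 and 1477 CPM in replicates 2 and 3. Sham-LF ran from 1326 to 1439 CPM in LV and from 1293 to 1976 CPM in Spt, and reached 1357 CPM in RV. Macrophage markers were higher in the low pair in the other chambers too, at 426.5 and 450.2 CPM against 295.5 and 294 CPM in Spt and at 470.0 and 399.7 CPM against 297 and 288 CPM in RV. Fibroblast markers (7 tested of 8 measured) summed to 3675 and 3952 CPM in LV of replicates 1 and 4, 3064 and 2896 CPM in replicates 2 and 3, and 2469 to 2713 CPM in Sham-LF. Postn, a matrix protein of activated fibroblasts, was called higher in LV (3.42 ± 0.80, adjusted p = 0.0352). The fibroblast sum was not higher in the low pair elsewhere. In Spt it was 2366 and 1967 CPM in replicates 1 and 3 and 1957 and 2186 CPM in replicates 2 and 4, against 1779 to 2103 CPM in Sham-LF. In RV it was 2221 and 2175 CPM in replicates 1 and 4 and 2562 and 2406 CPM in replicates 2 and 3, against 2032 to 2580 CPM. None of the atrial cardiomyocyte, endothelial, mural cell, adipocyte or mesothelial markers was called in AOB-F. The part of these markers in the levels of the 3 genes was not tested.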

How the data were processed

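RNA was measured in 99 libraries of whole heart tissue. The authors prepared directional polyadenylated libraries, trimmed reads with Trim Galore, aligned them with STAR to Rnor6.0 and counted them per gene with featureCounts. The deposited counts are unnormalized, and the authors also deposited counts normalized by DESeq2 size factors (a signal, not used for tests) and FPKM (used to compare levels between genes). The 3 genes, the gene lists and the tests were chosen with earlier results of these data known. Each chamber was fitted with the quasi-likelihood test of edgeR 4.0.16 (R 4.3.3) on the counts of its 33 libraries in 7 conditions, with TMM scaling, filterByExpr and Benjamini-Hochberg adjustment at 0.05, and the SE is the log2 fold change divided by the root of F. Chambers of Sham-H were compared with the animal as a block. DESeq2 1.42.0 was an alternative. Deviations of 21 animals were correlated by 100000 permutations on log2 CPM with a prior count of 2. Genes named beside the 3 were the 5 with the highest Pearson r over group means for each, the load markers and, per list, genes called or else the 2 with the lowest p in RV of AOB-F. Opcml, Prkar1a, Prkaca, Elavl4 and Dnaaf5 fell outside this rule and were named after their values were seen. Library series are those the sample numbers give. Nothing says whether animals shared litters. The fit was tested on simulated data.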

Additional observations from a re-analysis of the deposited data

Results flagged for a closer look

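Of 36 groups of 4 to 10 animals checked for the 3 genes, 3 held an animal far from the rest, all for Lsamp, and chance gives about 1 in 20 groups. In LV, Sham-H replicate 6 had 31.6 CPM and PAB-H replicate 2 had 33.4 CPM, each above the others of its group. In RV, Sham-H replicate 6 had 24.5 CPM, below the others. Both animals are among the 3 whose difference between LV and RV, over genes that separate the chambers in the other animals, had the opposite sign (-0.93 for Sham-H replicate 6 and -1.04 for PAB-H replicate 2). Whether these libraries carry each other's names was not tested.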

How the results depend on the processing

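Of 805 alternative values for the 3 genes, 766 counted as unchanged, 1 passed the threshold newly, 1 moved and 37 changed sign. The 1 that moved was the number of AOB-F animals low for all 3 genes in every chamber. Unchanged meant the same sign and side of the threshold. For AOB-F in LV and Spt and for Sham-LF against Sham-H it meant a shift under the larger group SD of log2 CPM. Sign changes of Sham-LF are thus not among the 37. Lsamp in RV, for 1, was at 0.059 and, with the replicate number as a block, at -0.016. In AOB-F, where the genes were chosen, calls were lost: Lsamp and Prkar1b in LV were each called in 7 of 15 alternatives, and Lsamp and Cnga4 in Spt each in 8 of 15. Prkar1b in Spt was called in 2 of 15. The number of genes called lower in AOB-F was not stable. In LV it was 20, and 41 with all 99 libraries in 1 fit, 76 by DESeq2, 140 with library series as a covariate, and 0 with only the compared groups or within library series 2. In Spt it was 9, and 0 with all libraries in 1 fit or only the compared groups, 36 by DESeq2 and 5 within library series 3. In RV it was 0, and 13 with library series as a covariate. Leaving out 1 animal gave 0 to 274 in LV, where leaving out AOB-F replicate 1, AOB-F replicate 4 or any animal of Sham-LF gave 0, and 0 to 76 in Spt, where leaving out replicate 1 or 3 of AOB-F, or 1 or 2 of its shams, gave 0. The cause was not tested. The log2 fold changes themselves ranged, leaving out 1 animal, from -1.95 to -1.16 for Lsamp, -1.67 to -1.06 for Prkar1b and -1.39 to -0.50 for Cnga4 in LV of AOB-F, and from -2.64 (without replicate 1) to -1.01 (without replicate 2) for Cnga4 in RV of PAB-F.

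With the replicate number as a replicate block, 0 genes were called lower in LV and 51 in Spt, and Lsamp, Prkar1b and Cnga4 were at -1.43, -1.21 and -0.81 in LV, -1.71, -0.97 and -1.85 in Spt and -0.78, -0.67 and -0.80 in RV of AOB-F. No label says that a number marks a shared animal or day, and 47 of 78 same-numbered pairs had a correlation over 0.1, so the number was not taken as a pairing. At the compensated stage the number follows the library series in LV and RV, where 35 of 42 pairs were over 0.1 (up to 0.79), against 7 of 21 in Spt, so number and series cannot be told apart there. Under the replicate block, PAB-F in Spt was at 0.021 for Lsamp and 0.079 for Prkar1b, and Sham-RF in Spt at 0.097 and -0.021.

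The values that changed sign had not passed the test, and none of them did so after the change. Within library series 3, AOB-H was at 0.032 for Prkar1b and 0.015 for Cnga4 in LV, and at 0.18 for Lsamp and 0.38 for Prkar1b in RV, and PAB-H at -0.28 for Lsamp and 0.20 for Prkar1b in LV and 0.19 and 0.36 in RV. Within library series 1, PAB-H was at 0.028 for Prkar1b and 0.14 for Cnga4 in LV and 0.13 for Prkar1b in RV. Within library series 2, PAB-H in Spt was at 0.13 for Prkar1b and 0.14 for Cnga4, and Sham-RF in RV at -0.088 for Cnga4. Without the 3 animals with opposite chamber differences, PAB-H in Spt was at 0.045 for Prkar1b. Sham-RF was at 0.00092 for Prkar1b in LV with all libraries in 1 fit and, with library series as a covariate, at 0.11 for Prkar1b in LV and 0.066, 0.021 and -0.038 for Lsamp, Prkar1b and Cnga4 in RV. Leaving out 1 animal, PAB-F ranged in LV from -0.070 to 0.16 for Lsamp and -0.26 to 0.77 for Cnga4, and in Spt from -0.14 to 0.097 for Lsamp and -0.15 to 0.11 for Prkar1b. Sham-RF ranged from -0.085 to 0.068 for Prkar1b in LV, from -0.19 to 0.052, -0.11 to 0.14 and -0.48 to 0.0045 for Lsamp, Prkar1b and Cnga4 in Spt, and from -0.32 to 0.041 for Prkar1b and -0.028 to 0.17 for Cnga4 in RV. Lsamp in RV against LV of Sham-H was 0.53 without replicate 6.

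Of the 18 correlations, Lsamp and Cnga4 in LV had 0.35 by Spearman, 0.21 without the 2 farthest animals and 0.46 within library series 2. In Spt, Lsamp and Cnga4 had 0.54 by Spearman and 0.54 without the 3 animals, Prkar1b and Cnga4 had 0.63 by Spearman, and Lsamp and Prkar1b had 0.56 within library series 3. In RV, Lsamp and Prkar1b had 0.56 by Spearman, 0.46 without the 2 farthest animals and 0.54 within library series 2, Lsamp and Cnga4 had 0.42, 0.25, 0.85 and, without the 3 animals, 0.48, and Prkar1b and Cnga4 had -0.055 without the 2 farthest. Lsamp in LV and Spt had -0.10 without the 2 farthest and 0.79 without the 3 animals, and Lsamp in LV and RV had 0.28 without the 3 animals and 0.018 within library series 2. Among the animals of library series 2 in LV and RV, Lsamp in Spt and RV had -0.27 and Prkar1b in LV and RV -0.36. Cnga4 in LV and RV had 0.0091 by Spearman and 0.22 without the 2 farthest. Correlations within the other library series were not run, since a condition held 2 animals there. With the Spt libraries of AOB-F replicates 1 and 2 exchanged, 1 animal was below the sham range for all 3 genes in every chamber. Of the 5 genes most like Prkar1b, 0 were shared by Spearman and 1 by group medians, and for Cnga4 1 and 2. Depth limits Cnga4, which rested on 2 to 80 reads.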
